A study of Mus musculus with 9 samples.

Results

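Retinoic acid is cleared and held in check by a small set of enzymes, and 4 of them were followed here: Cyp26a1, Cyp26b1, Cyp26c1 and Dhrs3. They were chosen by name, and each was represented by 1 probe set that the array annotation pairs with a single symbol, so the account covers 4 of 19934 genes with such a probe set (21780 probe sets). The samples were aortic valves of C57BL/6J mouse pups at postnatal day 1, explanted onto floating filters and cultured for 48 hours. The DMSO group received the solvent at 0.001%, the ATRA group received 1 µmol/L all-trans retinoic acid dissolved in DMSO, and the LE540 group received LE540, a retinoic acid receptor antagonist whose dose and solvent the labels do not give. Every sample held the pooled valves of 5 to 6 pups, all groups shared a medium with fetal bovine serum, with 9 arrays split evenly into 3 per group.

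Cytochromes P450 of the CYP26 family hydroxylate all-trans retinoic acid and so start its degradation. DHRS3 is a short-chain reductase that turns retinaldehyde back into retinol and so lowers the supply of the acid. Retinoic acid acts through receptors of the RAR and RXR families, which sit on direct repeats of a short core motif. Cyp26a1 and Dhrs3 are textbook targets of those receptors, which closes a feedback loop, and in the embryonic heart the balance of synthesis and clearance patterns the inflow and outflow regions.

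Because receptor binding sites of this kind are a known feature of Cyp26a1, promoter windows were searched for them. RefSeq (build GRCm38.p6) gave 6 windows for the 4 members, each running from 250 bases before a transcript's start to 50 bases after it. The core motif was searched in the spelling AGGTCA and in its variants spelled AGTTCA as well as GGGTCA and also GGTTCA. Any pair of these counted as a direct repeat when spaced by 1, 2 or 5 bases, on either strand and with overlaps allowed. Cyp26a1 was the 1 member with a match, a repeat spaced by 5 bases. Of 32851 windows of that length, 0.0974% held such a repeat, 0.268% held one spaced by 2 bases and 0.222% one spaced by 1 base. Rarb, the gene of a retinoic acid receptor, held the other match of this spacing among the pathway genes considered below. Both sites are shown on the strand of their gene, with the core motifs in capitals, to set the member that has the repeat beside the receptor gene. The Cyp26a1 site lies at chr19:37697769-37697798 (gene strand +), and the Rarb site at chr14:16575507-16575536 (gene strand -).
Cyp26a1: ttaaagaTGAACTttgggTGAACTaatttg
Rarb: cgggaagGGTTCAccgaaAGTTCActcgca

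The Cyp26a1 repeat reads on the strand opposite to the gene and spans bases -32 to -16 relative to the transcript's start, whereas the Rarb repeat reads along the gene at -53 to -37. Read on its own strand, the Cyp26a1 repeat is identical to that of Rarb at 15 of 17 bases. Much of this likeness was set by the search, which admits few spellings of the core motif and leaves only the 5 bases between the motifs free. The windows of Dhrs3, Cyp26b1 and Cyp26c1 held 0 core motifs of these spellings, which says only that these letters are not in these windows. A match is a description of the sequence, and no binding was measured.

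The deposited values were RMA intensities on a linear scale, with array medians between 123.61 and 128.13. They were compared on the log2 scale, and limma was run over 23397 probe sets. A difference is said to have passed, risen or fallen where its p, adjusted by Benjamini-Hochberg, was under 0.1, the threshold of the series' design text. LE540 replicate 1 stood apart from the other arrays, at 63.7 on a first principal component that held 32.5% of the variance, against -21.5 to 13.9 for the rest. Markers of valve interstitial cells, 9 of 9 measured, averaged above the array medians in every group. In DMSO they ran from Twist1 at 254 ± 15.3 to the bright Dcn at 5222 ± 1441, with Postn at 2612 ± 614 (SD, n = 3). Markers of the labelled tissue were thus present. Of 10 cardiomyocyte markers some were bright in DMSO as well (Tnnt2 at 8418 ± 2016 and Actc1 at 3726 ± 2083), while others lay near the array medians (Myl7 at 107 ± 12.2, Nppa at 134 ± 24.0 and Myh7 at 144 ± 28.7). Each value is that of a mixed tissue, in which fewer cells of a type and less RNA per cell cannot be told apart.

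Of the 4 enzymes, 2 rose with ATRA against DMSO, Dhrs3 and Cyp26a1, and both rose over 2-fold. Cyp26b1 was higher in every ATRA array without passing, and Cyp26c1 differed by less than the spread between replicates. Over all probe sets 0.0812% passed in this comparison (19 of 23397, or 29 with the replicate number as a block) and 0.0598% passed with a change over 2-fold.

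Dhrs3 (probe set 10510129), the retinaldehyde reductase, read 630.16, 281.51 and 635.8 intensity units in DMSO replicates 1, 2 and 3. It read 3983.12, 2264.75 and 4310.69 in the ATRA arrays of the same numbers, and 379.54, 335.52 and 397.87 in the LE540 arrays. All 3 ATRA arrays lay far above every other array, the LE540 arrays were close together, and the DMSO arrays spanned 2.26-fold from lowest to highest. The mean went from 516 ± 203 in DMSO to 3520 ± 1099 in ATRA (SD, n = 3 each), a log2 change of 2.81 (SE 0.34, 95% confidence interval 2.03 to 3.59), or 7.01-fold (4.09 to 12.0). The adjusted p was 0.0508. By size, Dhrs3 held rank 3 among the rises of all tested probe sets.

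Replicate 2 gave the lowest Dhrs3 value in each of the 3 groups. Within replicate numbers the ATRA over DMSO ratio was 6.32, 8.05 and 6.78, a narrower range than that of the levels themselves. With the replicate number as a block the SE fell to 0.19 and the adjusted p was 0.00933. The arrays numbered 2 also had the highest endothelial marker score of their group, the mean centred log2 value of 8 genes: in DMSO 0.48 against -0.71 and -0.44, in ATRA 1.37 against -0.07 and 0.05, and in LE540 0.55 against -0.91 and -0.33. The score of 3 Y-linked genes was lowest in replicate 2 of each group (-2.5 in DMSO, -0.03 in ATRA and -1.52 in LE540). Y-linked RNA, which follows the share of male pups in a pool, also moved with the treatment: 3 of 3 genes were higher with ATRA than with DMSO, by a median log2 change of 2.19, though 0 passed in limma (2 at an unadjusted p under 0.05) and the summed intensities overlapped (533 to 1411 against 110 to 613). The part of the endothelial markers in the Dhrs3 values was not tested. Adding the Y-linked score to the fit gave a Dhrs3 change of 2.22 (adjusted p = 0.145).

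Cyp26a1 (10462853), the inducible retinoic acid hydroxylase, read 47.9, 54.59 and 43.82 in DMSO, 119.7, 131.77 and 97.07 in ATRA, and 56.65, 49.92 and 42.74 in LE540. The ATRA arrays did not overlap with either other group, and the DMSO and LE540 arrays were interleaved. From DMSO to ATRA the mean went from 48.8 ± 5.44 to 116 ± 17.6 (SD, n = 3 each), with a log2 change of 1.25 (SE 0.15, 95% confidence interval 0.90 to 1.60), or 2.37-fold (adjusted p = 0.0512). The within-number ratios were 2.5, 2.41 and 2.22. All its DMSO and LE540 values were dimmer than 3 in 4 probe sets of any array (lower quartiles 57.7325 to 62.95), and how far they exceed background is unknown. With 50 units added before log2 the change was 0.75 (adjusted p = 0.0823).

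Cyp26b1 (10545771), the family member known for shaping retinoic acid in skeletal and gonadal tissue, read 106.67, 100.89 and 120.48 in DMSO. It read 188.01, 172.31 and 245.41 in ATRA, and 130.37, 129.09 and 121.63 in LE540. The 3 groups did not overlap, although the lowest LE540 array exceeded the highest DMSO array only slightly. Its DMSO values lay below the lowest array median (123.61), and how far they exceed background is unknown. The mean was 109 ± 10.1 in DMSO and 202 ± 38.5 in ATRA (SD, n = 3 each), and the log2 change of 0.87 (SE 0.14, 95% confidence interval 0.55 to 1.19) did not pass (adjusted p = 0.146). Of all tested probe sets, 4.97% were higher in every ATRA array than in every DMSO array. By size Cyp26b1 held rank 181 among the rises. By unadjusted p in limma (0.00018) it held rank 28, still short of the threshold after adjustment.

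Cyp26c1 (10462846), the third CYP26 hydroxylase, read 90.91, 86.12 and 103.08 in DMSO, 102.97, 103.65 and 88.42 in ATRA, and 120.02, 99.52 and 98.02 in LE540. The 3 groups overlapped. The log2 change with ATRA was 0.08 (95% confidence interval -0.21 to 0.36, adjusted p = 0.999), an interval that reaches from 0.867-fold to 1.28-fold. All its values lay below the lowest array median (123.61). How far they exceed background is unknown, so the interval does not show that an expressed gene stayed unchanged. Cyp26c1 and Cyp26a1 are direct neighbours in the order of protein-coding genes on mouse chromosome 19, and the difference between their changes was not tested.

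**Figure D1:**
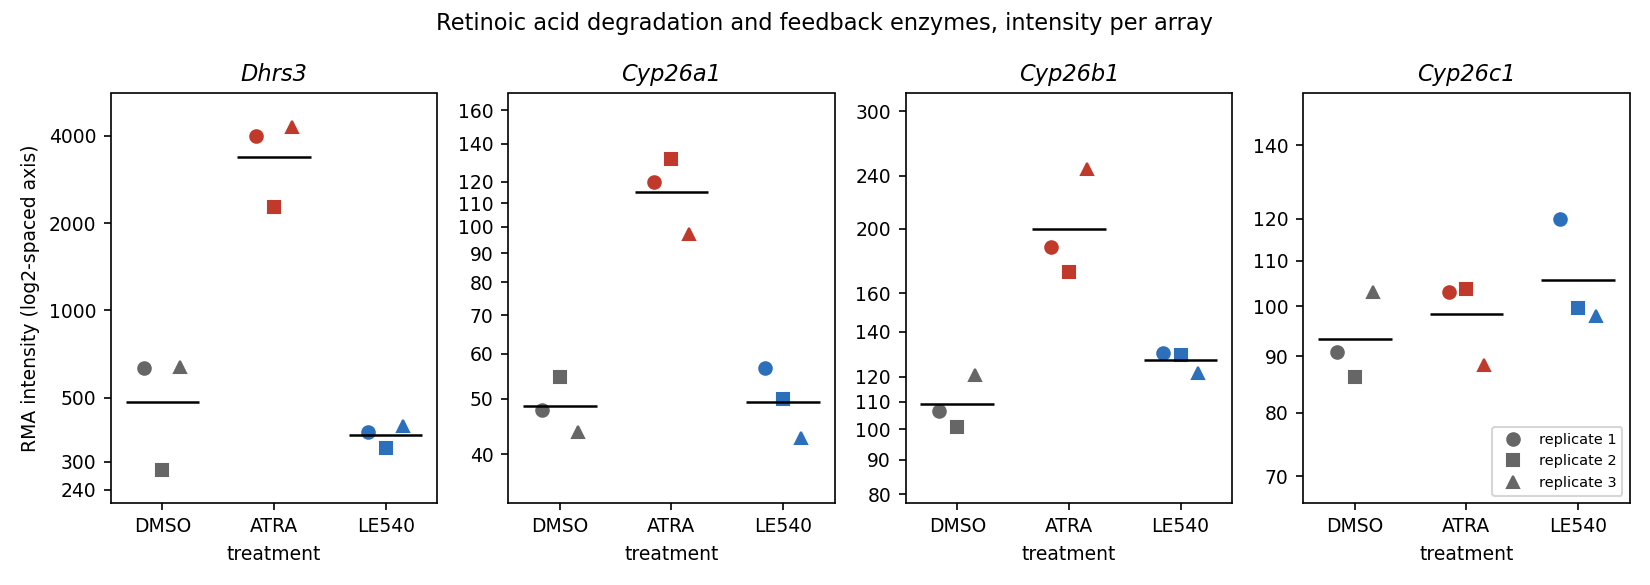
RMA intensity (vertical axis, log2-spaced, with its own range in each panel) of the 4 enzymes in every array, by treatment (horizontal axis). Symbols mark replicates 1 to 3 and lines the group mean of log2 values; ATRA arrays of Dhrs3 (2264.75 to 4310.69) and Cyp26a1 (97.07 to 131.77) lie above all other arrays, while the groups of Cyp26c1 overlap.

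Dhrs3 and Cyp26a1 were compared for the size of their response. The within-array difference between Dhrs3 and Cyp26a1, in log2 units, averaged 3.31 ± 0.82 in DMSO and 4.88 ± 0.70 in ATRA (SD, n = 3 each). The change of Dhrs3 was thus 1.56 larger than that of Cyp26a1, and the lowest ATRA difference (4.1) exceeded the highest DMSO difference (3.86). The two-sided exact permutation test gave p = 0.1, the smallest value that 3 against 3 arrays allow, for the 1 pair compared. Since the excess of Cyp26a1 over background in DMSO is unknown, so is the true size of this difference, which was 1.93 with 50 units added before log2 and 1.09 without DMSO replicate 2.

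The calls in ATRA vs DMSO lay close to the threshold in the fit without a block. With the replicate number as a block the adjusted p was 0.00933 for Dhrs3 and 0.0219 for Cyp26a1 (SE 0.11). Dhrs3 passed in 3 of the 9 fits that left out 1 array (without DMSO replicate 2, ATRA replicate 2 or LE540 replicate 1), with changes of 2.42 to 3.1 and adjusted p from 0.0392 to 0.202. Cyp26a1 also passed in 3 of the 9 (without ATRA replicate 3, LE540 replicate 1 or LE540 replicate 3), with changes of 1.15 to 1.37 and adjusted p from 0.06 to 0.309. Neither passed in a fit on the DMSO and ATRA arrays alone (adjusted p = 0.225 for Dhrs3 and 0.138 for Cyp26a1), with the Y-linked score (0.145 for both) or with the cardiomyocyte score (0.217 for both) as a covariate. The reported SE (0.34 for Dhrs3 and 0.15 for Cyp26a1) pools the spread of all 3 groups, LE540 arrays included. On the DMSO and ATRA arrays alone it was 0.39 for Dhrs3 and 0.14 for Cyp26a1. With the Y-linked score the changes were 2.22 for Dhrs3 (SE 0.32) and 1.41 for Cyp26a1 (SE 0.19). With the cardiomyocyte score they were 2.83 (SE 0.39) and 1.24 (SE 0.18). Cyp26b1 passed in 1 alternative, with arrays weighted by quality (adjusted p = 0.0591).

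Marker lists moved in the same arrays. The summed intensity of 9 valve interstitial markers was 21276 to 23890 in ATRA and 13753 to 19114 in DMSO arrays, with 8 of 9 members higher and 0 passing in limma (3 at an unadjusted p under 0.05). That of 7 mesothelial and epithelial markers was 1083 to 1136 in ATRA and 743 to 846 in DMSO arrays. Krt18, a keratin, rose (log2 change 1.82, adjusted p = 0.0808), and Krt19 was at 1.05 without passing in limma (adjusted p = 0.253). The mesothelial markers Upk3b, Wt1 and Msln were at 0.05, 0.03 and 0.15, Krt8 at 0.14 and Epcam at -0.17. Cardiomyocyte sums overlapped, at 11655 to 19849 in ATRA and 12021 to 24820 in DMSO arrays. Sums did not overlap either for 5 adipocyte markers (771 to 1404 against 526 to 735) or for the 2 measured of 4 Schwann cell and neural crest markers (284 to 403 against 251 to 279). The adipocyte sum followed Fabp4 alone (mean 306 in DMSO and 779 in ATRA). Adipoq, Plin1, Cidec and Lep were at log2 changes of 0.04, 0.03, -0.21 and 0.13, and the list median was 0.04. In the Schwann cell and neural crest list S100b was at 0.55 and Sox10 at 0.04. Endothelial markers were higher in 8 of 8 (median log2 change 0.61) and smooth muscle markers in 4 of 5 (0.85), with overlapping sums (1887 to 5447 against 1154 to 2915, and 2889 to 6558 against 1505 to 3288). The part of these lists, other than the cardiomyocyte score given above, in the changes of the enzymes was not tested.

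Set against the receptor antagonist, ATRA again gave higher Dhrs3 and Cyp26a1, and both passed at a lower adjusted p. For Cyp26a1 the unadjusted p in limma was not lower (2.92e-05, against 2.49e-05 over DMSO). Its lower adjusted p goes with the larger number of probe sets that passed in this comparison. The 2 members that passed compare with 0.603% of all probe sets (141 of 23397, or 221 with the replicate block). Dhrs3 averaged 371 ± 32.0 in LE540 arrays, so the log2 change from LE540 to ATRA was 3.19 (SE 0.34, 95% confidence interval 2.42 to 3.97), or 9.16-fold (5.34 to 15.7), with an adjusted p of 0.0123. It passed in all 9 fits without 1 array (adjusted p from 0.00667 to 0.0613).

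Cyp26a1 averaged 49.8 ± 6.96 in LE540 arrays and was 2.33-fold higher with ATRA (log2 change 1.22, SE 0.15, adjusted p = 0.0236). It passed in all 9 fits without 1 array (0.0388 to 0.0928) but not in a fit on these 6 arrays alone (0.12). Cyp26b1 averaged 127 ± 4.72 in LE540 arrays, and its change of 0.65 (SE 0.14) did not pass (adjusted p = 0.154). Of all probe sets 5.24% were higher in every ATRA than in every LE540 array, as were Dhrs3, Cyp26a1 and Cyp26b1. Cyp26c1 was at -0.10 (95% confidence interval -0.38 to 0.18). Marker sums differed here too, without overlap for valve interstitial (21276 to 23890 in ATRA against 10114 to 17305 in LE540 arrays), smooth muscle (2889 to 6558 against 1417 to 2483) and mesothelial and epithelial markers (1083 to 1136 against 743 to 839). Among them Vcan, the valve proteoglycan versican (log2 change 1.29, adjusted p = 0.0608), and Krt18 (1.83, adjusted p = 0.0313) passed, and their part in the result was not tested. This comparison shares its ATRA arrays with the first, so the values of both are given side by side and are not independent.

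Adding the receptor antagonist alone left no member past the threshold. In LE540 vs DMSO, 0 of 4 members passed in limma, where 0.0299% of all probe sets did (7 of 23397, or 1 with the replicate block). An unadjusted p under 0.05 was reached by 0 members and by 8.8% of all probe sets. Dhrs3 was at -0.38 (SE 0.34, 95% confidence interval -1.16 to 0.39), which allows anything from 0.447-fold to 1.31-fold. It was -0.77 without DMSO replicate 2, -0.19 without either other DMSO array and -0.79 with the Y-linked score in the fit, and it did not pass in any of these. Within replicate numbers its LE540 over DMSO ratio was 0.602 and 0.626 for replicates 1 and 3 and 1.19 for replicate 2, where the DMSO array was the lowest of its group. The SD of its log2 values was 0.13 among LE540 arrays, against 0.67 among DMSO and 0.51 among ATRA arrays.

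For Cyp26a1 the LE540 minus DMSO change was 0.03 (95% confidence interval -0.33 to 0.38), and it was -0.07 without LE540 replicate 1. Cyp26b1 was at 0.22 (95% confidence interval -0.10 to 0.54, adjusted p = 0.657): its LE540 arrays lay above its DMSO arrays, as did those of 6.74% of all probe sets. Cyp26c1 was at 0.18 (95% confidence interval -0.10 to 0.46), with LE540 replicate 1 as its highest array. At 3 arrays per group these intervals do not show that the antagonist left the enzymes alone.

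**Figure D2:**
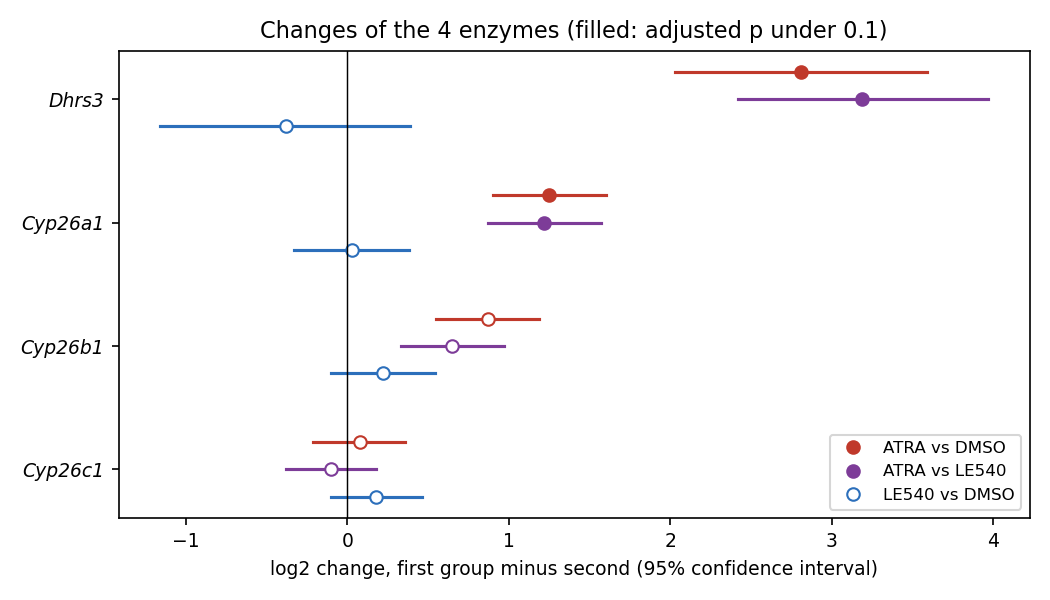
Log2 change (horizontal axis, first group minus second) of each enzyme in the 3 comparisons, with 95% confidence intervals from limma; filled points passed at adjusted p under 0.1. Dhrs3 (2.81 and 3.19) and Cyp26a1 (1.25 and 1.22) are filled in both comparisons with ATRA, and the LE540 vs DMSO intervals all include 0.

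**Figure D3:**
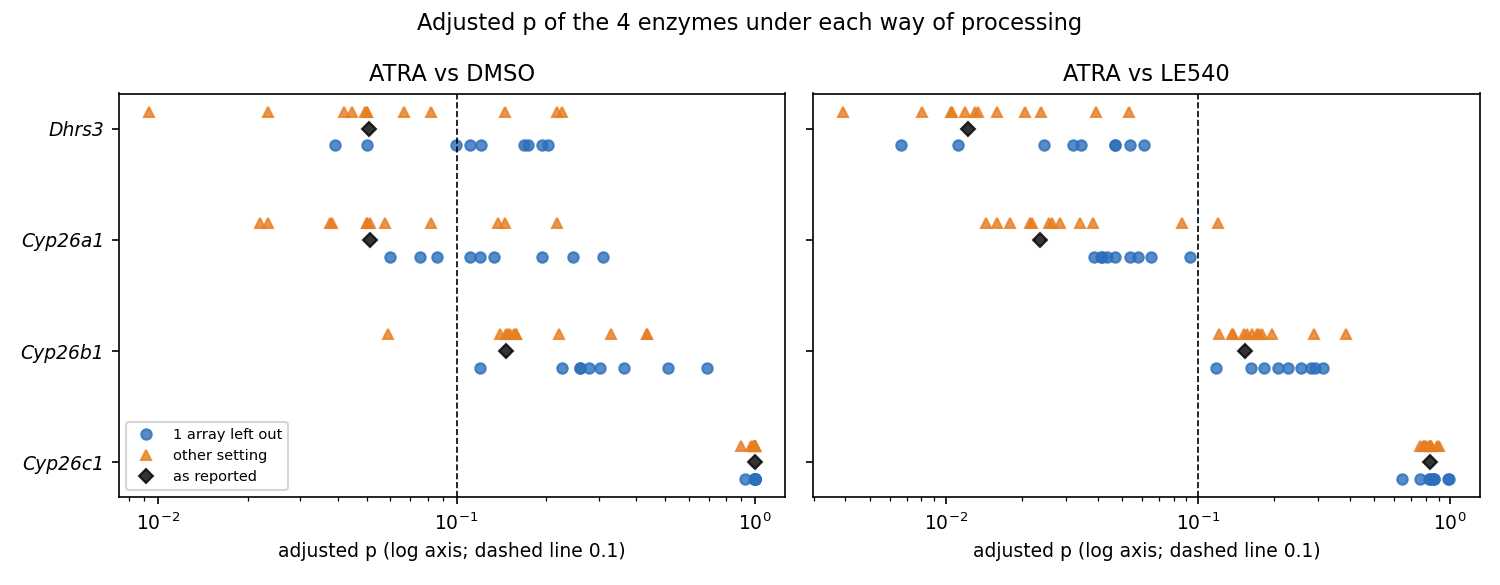
Adjusted p (horizontal log axis, dashed line at 0.1) of each enzyme as reported, with 1 array left out and under other settings. In ATRA vs DMSO, Dhrs3 and Cyp26a1 lie on both sides of the line; in ATRA vs LE540, Dhrs3 stays below it in all 21 alternatives and Cyp26a1 in 20 of 21.

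By order of mean log2 level, Dhrs3 ran ATRA, DMSO, LE540, and the last pair did not differ beyond their spread. Cyp26a1 ran ATRA, LE540, DMSO, with its LE540 and DMSO arrays interleaved. Cyp26b1 ran in that order too, without overlap, though no step of it passed. Cyp26c1 ran LE540, ATRA, DMSO, with all neighbours in that order overlapping.

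The other genes of the retinoid pathway give the setting. Of 48 measured genes in 6 lists, 1 rose and 0 fell in ATRA vs DMSO (median log2 change 0.06, against -0.006 over all tested probe sets). In LE540 vs DMSO 0 passed (median -0.01 against 0.021), and in ATRA vs LE540 4 were higher and 0 lower (median 0.09 against -0.029). An unadjusted p under 0.05 was reached by 7, 5 and 12 of the 48 in these comparisons, against 4.7%, 8.8% and 9.54% of all probe sets. The counts describe the lists and were not tested against other genes.

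On the supply side, 0 of 11 synthesis genes passed in any comparison. Aldh1a2, the main embryonic retinaldehyde dehydrogenase, was at 0.60 (SE 0.64) with ATRA, with arrays that overlapped. Rdh10, the retinol dehydrogenase that opposes DHRS3, was at -0.23 (SE 0.36). Among storage, uptake and carrier genes 0 of 10 passed: Fabp5, a carrier of fatty acids and retinoic acid, was at 0.87 (SE 0.21, adjusted p = 0.604) and Rbp4, the plasma retinol carrier, at 0.31 (SE 0.31).

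On the response side, 0 of 6 receptor genes passed in ATRA vs DMSO and 1 in ATRA vs LE540. That gene was Rarb, at 239 ± 108 intensity units with DMSO, 1125 ± 431 with ATRA and 165 ± 83.2 with LE540 (SD, n = 3 each). Its change was 2.25 (SE 0.46, adjusted p = 0.353) against DMSO and 2.82 (SE 0.46, adjusted p = 0.0595) against LE540. Of 5 coregulator genes 0 passed, with Nrip1, a corepressor, at 0.41 (SE 0.12) and Ncoa7, a coactivator, at -0.27 (SE 0.15) in ATRA vs DMSO.

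Among 13 retinoic acid targets outside retinoid metabolism, 1 rose with ATRA over DMSO and 3 with ATRA over LE540. Tgm2, the tissue transglutaminase, was called in both (adjusted p = 0.000228 and 0.000395). Rarres2, which encodes the chemokine chemerin, was at 1.45 (SE 0.24, adjusted p = 0.189) over DMSO and passed over LE540 (1.35, adjusted p = 0.0823). Meis2, a homeobox factor, was at 0.78 (SE 0.34) over DMSO, at -1.03 (SE 0.34, adjusted p = 0.529) in LE540 vs DMSO, and passed in ATRA vs LE540 (1.81, adjusted p = 0.0927). Of other cytochromes P450 linked to the retinoid route 0 of 3 passed, with Cyp1a1 at 0.11 (SE 0.10) and Cyp1b1 at 0.06 (SE 0.49).

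**Figure D4:**
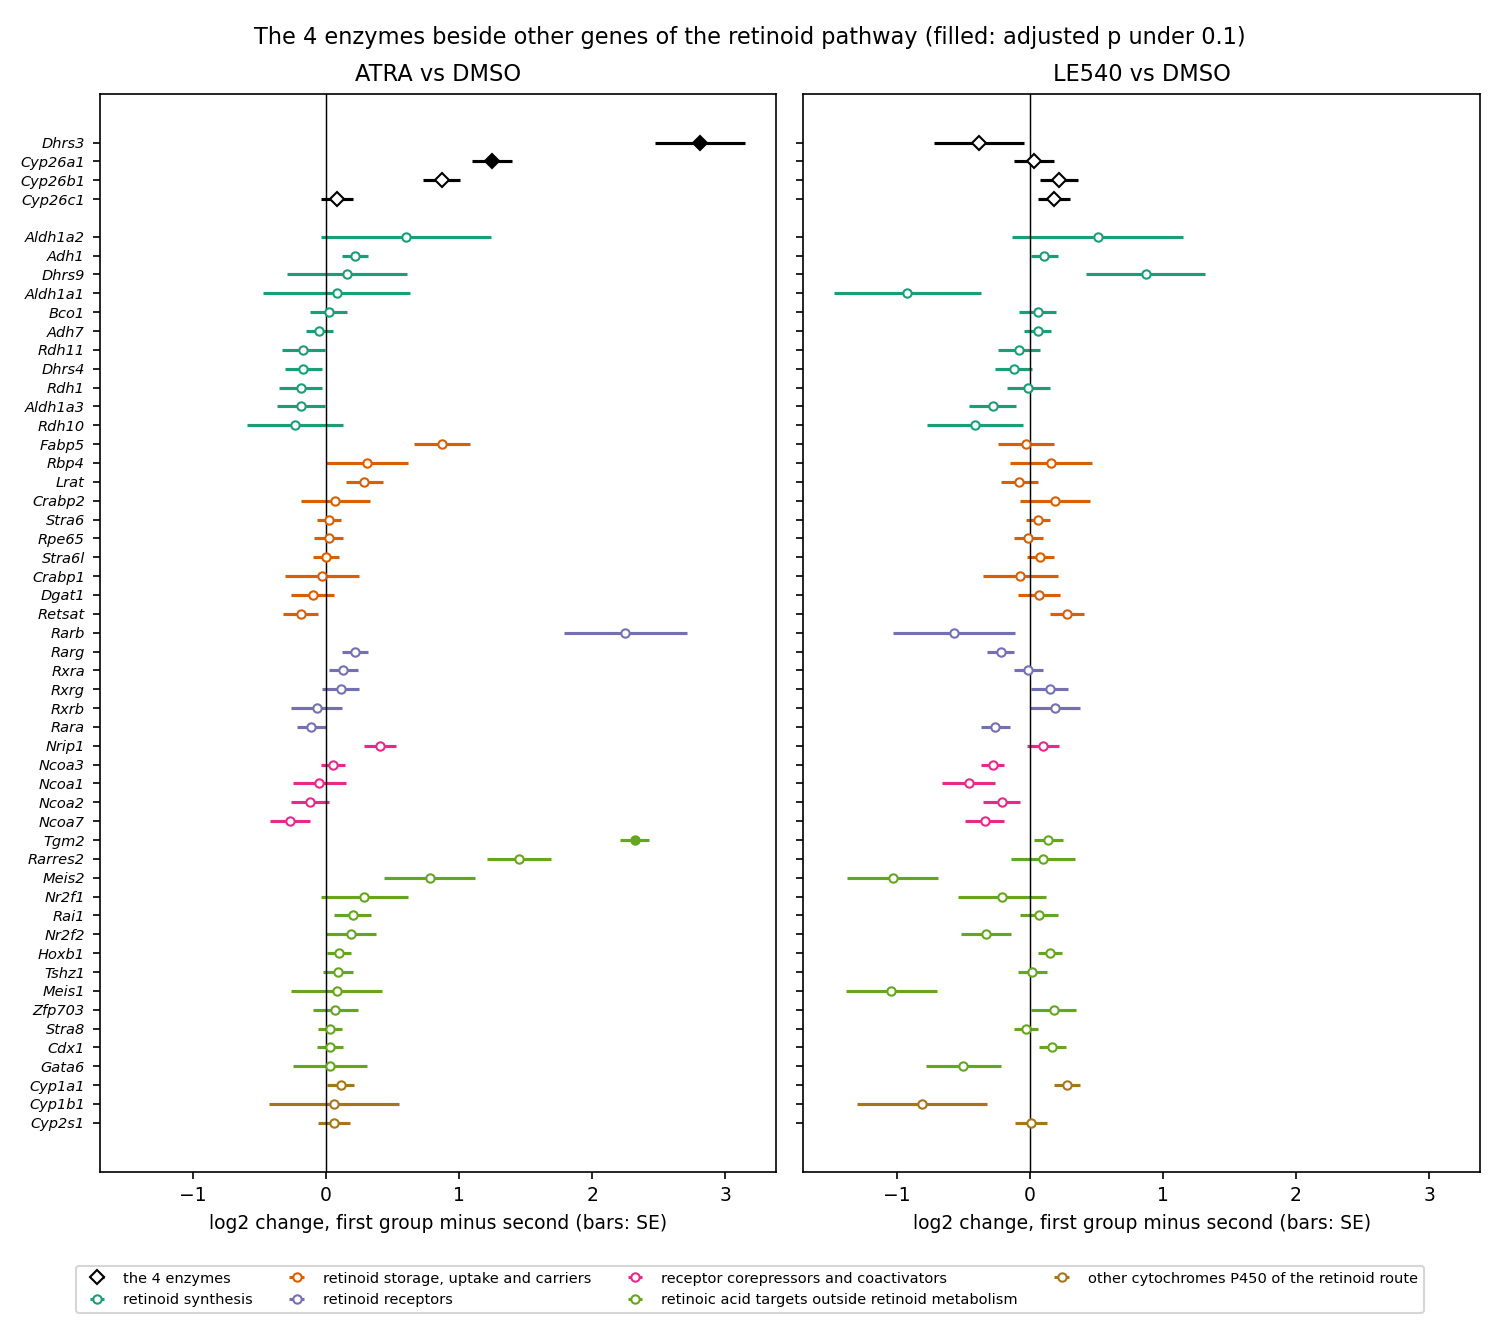
Log2 change (horizontal axis, bars are SE) of the 4 enzymes and of 48 other retinoid pathway genes in ATRA vs DMSO and LE540 vs DMSO; filled points passed at adjusted p under 0.1. With ATRA, Dhrs3, Cyp26a1 and Tgm2 are filled; with LE540 none is.

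The probe sets most like each passing member were sought over the 9 arrays, by the root-mean-square difference of log2 values after each was centred on its own mean. The 5 closest to Dhrs3, whose own spread on that scale was 1.48, were Pparg at 0.41, Csn3 and Fap at 0.51, Rarb at 0.52 and Efemp1 at 0.54. For Cyp26a1, with a spread of 0.60, they were Cygb at 0.19, Kbtbd11 at 0.21, Gfpt2 at 0.23, and Clmp and Heg1 at 0.24. Their changes with ATRA over DMSO ran from 0.94 to 2.74, which the choice over these same arrays fixes in direction. Pparg, Csn3, Fap, Kbtbd11 and Heg1 passed in that comparison. Rarb, Efemp1, Cygb, Gfpt2 and Clmp did not (adjusted p from 0.189 to 0.632 in limma).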

How the data were processed

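Total RNA of 9 explant pools was hybridized to 1-colour arrays, 1 pool per array. Per the submitters' processing notes, the authors used Affymetrix Expression Console 1.1 and RMA; the deposited intensity values are on a linear scale, and build, annotation and filters are not given in the sources used here. Array number limits precision.

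The log2 of each value was fitted with limma 3.58.1 in R 4.3.3 (3 groups, all 9 arrays, no block, two-sided, 6 residual degrees of freedom) over the 23397 of 28270 rows that the platform table pairs with a symbol (21780 with 1, 1617 with several, 4873 with none left out). Intensities are mean ± SD; folds are 2 to the power of the fitted change. The fit was tested on simulated data. The labels call the samples biological replicates.

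Same-numbered arrays deviated together in ATRA and DMSO (r = 0.143, 0.342 and 0.22) and in ATRA and LE540 (0.261, 0.282 and 0.269). They did so less in LE540 and DMSO (0.00946, 0.215 and 0.126), where LE540 replicate 3 was closer to DMSO replicate 1 (0.18). The labels do not say that equal numbers belong together, so the block was run as an alternative.

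Members and lists were chosen with earlier results of these data known. Named genes are all members, pathway list genes that passed in any comparison or else the 2 largest ATRA changes, and the 5 most alike probe sets of each passing member, predicted names passed over. Any other gene named was chosen after its values were seen. List genes without a probe set of 1 symbol were not analysed here.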

Additional observations from a re-analysis of the deposited data

How the results depend on the processing

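Of the alternatives, 12 settings other than leaving out an array and 9 that left out 1 array each were run on every member, and 2 further thresholds on the counts. The count of members passing in ATRA vs DMSO, 2 as reported, was 0 with only the 2 groups compared, 0 with either the Y-linked or the cardiomyocyte score added to the fit, 0 at an adjusted p under 0.05, and 0 to 2 without 1 array; it was 3 with array weights, and the direction of Dhrs3, Cyp26a1 and Cyp26b1 held in all 21. In ATRA vs LE540 the count of 2 became 1 with only the 2 groups compared, and was 2 without any 1 array. In LE540 vs DMSO it was 0 in all. With the replicate block the counts were 2, 0 and 2, and it changed no member's call. Taken within replicate numbers, the difference between Dhrs3 and Cyp26a1 was 1.56 (exact p = 0.25, the smallest 3 pairs allow). Uncalled changes turned sign for Cyp26c1 in ATRA vs DMSO (-0.00168 with array weights, -0.01 with the Y-linked score) and for Cyp26a1 in LE540 vs DMSO (-0.05 without DMSO replicate 3, -0.07 without LE540 replicate 1; leaving out each array in turn gave -0.07 to 0.13).

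Counts over all probe sets moved too. In ATRA vs DMSO the 19 became 29 with the block, 9 with only the 2 groups, 12 with 1 probe set per gene, 71 with array weights, 7 with the Y-linked and 5 with the cardiomyocyte score, and 4 to 22 without 1 array. In ATRA vs LE540 the 141 became 221, 25 with the 2 groups, 93 with log2(value + 50), 60 with the cardiomyocyte score and 54 to 278 without 1 array. In LE540 vs DMSO the 7 became 1 with the block or with only the 2 groups, 12 with 1 probe set per gene, 0 to 297 without 1 array (297 without LE540 replicate 3; 0 without any 1 DMSO array or ATRA replicate 3), and 0 in limma after quantile normalization, with every row tested, with log2(value + 50) or with the cardiomyocyte score (1111 to 2469 at an unadjusted p under 0.05 over the settings that gave 0). Fits on 6 arrays have fewer degrees of freedom (4 against 6); other causes were not tested. Cyp26a1 stayed above the dim filter (a mean of 60.1) through its ATRA arrays.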

Other observations

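Genes flanking the enzymes gave no passing change. In the order of protein-coding genes, Exoc6 and Myof lie on the outer sides of the Cyp26c1 and Cyp26a1 pair, and their log2 changes in ATRA vs DMSO were -0.14 (SE 0.20) and 0.01 (SE 0.23), beside 1.25 for Cyp26a1. Next to Cyp26b1, Dysf, a membrane repair protein, was at 0.21 (SE 0.17) and Exoc6b, a subunit of the exocyst, at 0.01 (SE 0.24). Next to Dhrs3, Vps13d, a lipid transfer protein, was at 0.05 (SE 0.13) and Tnfrsf1b, a receptor for tumour necrosis factor, at 0.55 (SE 0.13, adjusted p = 0.508 in limma).

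Genes that share the promoter feature of Cyp26a1 were few. The direct repeat spaced by 5 bases stood in windows of 31 genes, of which 11 had a probe set here. With ATRA over DMSO 1 of the 11 rose, Cyp26a1 (median log2 change 0.204, against -0.006 over all tested probe sets, of which 0.0812% passed). With ATRA over LE540 2 rose, Cyp26a1 and Rarb (median 0.179 against -0.029, with 0.603% of all passing). The remaining 9 genes ran from -0.10 (Prss27) to 0.30 (Cfap45 and Hbb-y) in ATRA vs DMSO, with adjusted p from 0.605 to 0.999 in limma over the 3 comparisons. Of 38 tested genes with the repeat spaced by 1 base and 14 with it spaced by 2, 0 passed in ATRA vs DMSO in limma (2 and 1 at an unadjusted p under 0.05; medians 0.048 and 0.109). In ATRA vs LE540, 0 of these rose, and 1 fell, the chemokine gene Cxcl10 (spacing 1; 4 and 3 at an unadjusted p under 0.05; medians -0.049 and -0.048).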
